A study of Rattus norvegicus with 2 samples.

Results

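Desmosomes and adherens junctions are the anchoring contacts by which neighbouring epithelial cells hold together. The set described here holds 10 genes that encode their parts: the desmosomal cadherins Dsg3, Dsc2 and Dsc3, the plaque proteins Dsp, Jup and Pkp1, the classical cadherins Cdh1 and Cdh3, and the catenins Ctnna1 and Ctnnb1. The genes were chosen by symbol, and every probe set that the platform annotation pairs with that 1 gene was used. Of the 10 genes, 8 had such a probe set, out of 14217 genes named on the array, and Dsg3 and Dsc3 had none and have no value below. The 8 genes were covered by 13 probe sets, 5 genes by a single one.

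The tissue was esophagus of male Sprague-Dawley rats, an outbred laboratory strain, aged 5 to 6 weeks by the labels. One group was given OSU-HDAC42, an inhibitor of histone deacetylases, by gavage in 7 doses of 50 mg/kg, a total of 350 mg/kg, and the other was given vehicle by gavage. Tissue was collected on day 15, 24 hours after the last dose. Each group was measured on 1 Affymetrix rat genome expression array, and the labels do not say whether an array held the RNA of 1 rat or of several. There are therefore no replicates, and no difference below has a p-value, a standard error or a spread between rats.

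In both junctions, cadherins cross the membrane and bind cadherins of the adjacent cell. In the desmosome, desmogleins and desmocollins bind plakoglobin (Jup) and plakophilins (such as Pkp1) inside the cell, and desmoplakin (Dsp) ties this plaque to keratin filaments. In the adherens junction, E-cadherin (Cdh1) and P-cadherin (Cdh3) bind beta-catenin (Ctnnb1) or plakoglobin, and alpha-catenin (Ctnna1) couples the complex to actin. Beta-catenin is also the transcriptional effector of Wnt signalling. The stratified squamous epithelium that lines the esophagus is rich in both junctions, which let it withstand the passage of food.

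All values are probe set intensities in the arrays' own arbitrary units. A difference is the log2 value of the OSU-HDAC42 sample minus that of the vehicle sample, with 16 put in place of any lower intensity, and each gene is represented by its brightest probe set unless another is named. A gene was counted as above the expression floor when its higher array reached an intensity of 49.1, which is the median, with controls left out, of the probe sets' geometric means over both arrays. All 8 measured genes were above the floor, as were 11 of their 13 probe sets. None of the 8 differed by 2-fold, a size reached by 3.17% of the 9560 genes above the floor in the lower direction and by 1.88% in the higher direction. None differed by 1.5-fold either, where 10.9% of all genes were lower and 7.58% higher. The differences ran from -0.42 for Dsc2 to 0.36 for Cdh3, with a median of -0.077, beside a median of -0.027 over all genes above the floor. In the OSU-HDAC42 sample 5 of the 8 genes were lower, 2 were higher and 1 was equal, where 52.8% of all genes were lower and 46.7% higher, and with each array centred on its median 4 were lower and 4 higher.

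**Figure D1:**
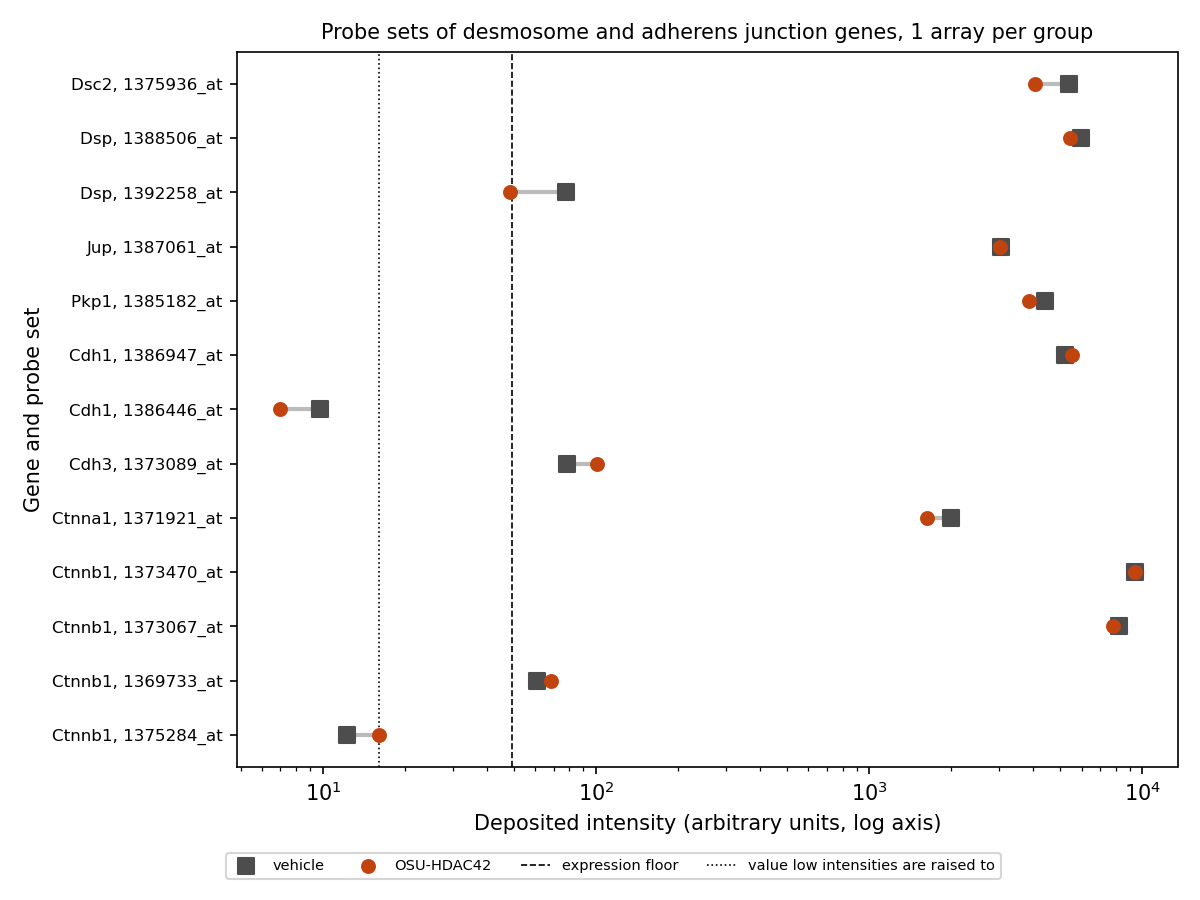
Deposited intensity, in arbitrary units on a log axis, of the 13 probe sets of the 8 measured genes in the vehicle sample (squares) and the OSU-HDAC42 sample (circles), with 1 array per group and no error bars. The brightest probe sets of all genes but Cdh3 lie at intensities over 1000, the widest gap among these bright probe sets is that of Dsc2 (4040.1 against 5389.5), and the dim second probe set of Dsp lies to the left on the OSU-HDAC42 array (48.5 against 77.4).

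The desmosomal genes are shown first by the sequence before their start sites. They were picked for this because all 4 measured ones lay below 0 in the deposited values. A link between sequence and difference was not tested. The sequences used here, from RefSeq on the GRCr8 assembly, covered 7 of the 10 genes, Dsg3, Dsc2, Dsc3, Dsp, Jup, Pkp1 and Ctnnb1. Those of Cdh1, Cdh3 and Ctnna1 were not at hand and were not searched. The sequences do not come from the array, which measures transcripts and not promoters. The 250 bases before the start are printed 5′ to 3′ on the gene's strand for the 4 measured desmosomal genes, with matches to the motifs searched in capitals. These positions are chr18:11757467-11757716 for Dsc2, chr17:26877122-26877371 for Dsp, chr10:85827430-85827679 for Jup and chr13:49909163-49909412 for Pkp1, all on the minus strand.
Dsc2: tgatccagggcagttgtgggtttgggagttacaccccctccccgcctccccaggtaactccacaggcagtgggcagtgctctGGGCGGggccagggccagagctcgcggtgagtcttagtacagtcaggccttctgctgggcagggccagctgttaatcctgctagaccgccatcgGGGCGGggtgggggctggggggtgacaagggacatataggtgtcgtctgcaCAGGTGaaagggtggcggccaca
Dsp: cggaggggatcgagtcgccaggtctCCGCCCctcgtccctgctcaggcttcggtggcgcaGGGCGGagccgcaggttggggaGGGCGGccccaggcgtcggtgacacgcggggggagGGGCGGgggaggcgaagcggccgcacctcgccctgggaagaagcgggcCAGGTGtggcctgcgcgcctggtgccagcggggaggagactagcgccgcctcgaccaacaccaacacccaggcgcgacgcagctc
Jup: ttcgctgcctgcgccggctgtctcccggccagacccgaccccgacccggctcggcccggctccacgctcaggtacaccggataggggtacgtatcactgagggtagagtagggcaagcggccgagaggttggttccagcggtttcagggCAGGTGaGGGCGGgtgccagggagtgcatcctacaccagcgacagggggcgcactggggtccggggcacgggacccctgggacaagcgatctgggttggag
Pkp1: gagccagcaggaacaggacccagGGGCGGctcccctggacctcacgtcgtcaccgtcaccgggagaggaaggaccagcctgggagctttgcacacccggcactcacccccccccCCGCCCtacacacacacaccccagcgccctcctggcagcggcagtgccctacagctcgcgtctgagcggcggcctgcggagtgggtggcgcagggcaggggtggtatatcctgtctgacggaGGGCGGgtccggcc
The motifs were CACCTG and its reverse complement CAGGTG, the E-box form known to be bound by Snail and Zeb repressors of Cdh1, then GGGCGG with CCGCCC, the GC box, and TATAAA with TTTATA, the TATA box, and no match overlapped another. The E-box form was present in 3 of the 7 sequences, those of Dsc2, Dsp and Jup, with its first base 23, 85 and 101 bases before the start, and in 15.9% of all 33469 RefSeq sequences of that length. The GC box was present in 5 of the 7 (30.5% of all) and the TATA box in 0 of the 7 (12.9% of all). Dsp held 4 GC box matches, Pkp1 3, Dsc2 2, and Jup and Dsc3 1 each. GC made up 64.4% of the bases for Dsc2, 75.2% for Dsp, 68.8% for Jup and 71.2% for Pkp1, and 64.4% for Dsc3, 51.6% for Dsg3 and 49.2% for Ctnnb1, against a median of 51.2% over all sequences. A match is a run of letters in this window and not a measured site.

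Among the desmosomal cadherins, Dsc2 (desmocollin 2, a widely expressed desmosomal cadherin) stood at 4040.1 in the OSU-HDAC42 sample and 5389.5 in the vehicle sample, a difference of -0.42 or 1.33-fold lower. This was the largest difference among the 8 genes. Genes of like brightness differed little between these arrays: the 413 genes within 0.5 log2 units of Dsc2 in mean intensity had differences with an SD of 0.19 and a median of 0.010. Of these genes, 1.69% lay below Dsc2, and 3.63% lay at least as far from 0 in either direction. Only 1 probe set measured Dsc2, so no second one bears on it.

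Desmoplakin, the plaque protein that holds keratin filaments, was measured by a pair of probe sets that differ in how far apart the samples lie. The bright one (1388506_at) stood at 5428.5 in the OSU-HDAC42 sample and 5966 in the vehicle sample, a difference of -0.14 or 1.10-fold lower, and 31.8% of the 274 genes of like brightness were at least as far from 0. The dim one (1392258_at) stood at 48.5 and 77.4, a difference of -0.67 or 1.60-fold lower, where the OSU-HDAC42 value was just under the floor. It was the only member probe set above the floor to differ by 1.5-fold, a share of 1 in 11 where 9.88% of all single-gene probe sets above the floor were lower by that much. Both probe sets were lower in the OSU-HDAC42 sample, and their differences lay 0.54 apart. Over all genes, the gap between probe sets of 1 gene had an SD of 0.41 (3643 pairs in 2126 genes), and 22.2% of genes as dim as the second Dsp probe set were at least as far from 0.

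Plakoglobin, the armadillo protein shared by both junctions, had almost the same intensity in the samples. It stood at 3013 in the OSU-HDAC42 sample and 3051 in the vehicle sample, a difference of -0.018 that became 0.0031 when each array was centred on its median. Of the 715 genes of like brightness, 93.8% were at least as far from 0. Plakophilin 1, the plakophilin of stratified epithelia that strengthens the desmosomal plaque, stood at 3846.5 against 4423.5, a difference of -0.20 or 1.15-fold lower. Among 505 genes of like brightness 24.6% were at least as far from 0 as Pkp1. Together, the 4 desmosomal genes had differences from -0.42 to -0.018 with a median of -0.17, and all 4 were lower except when arrays were centred on their medians, where 3 were lower and Jup was not.

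The genes of the adherens junction were spread about 0. E-cadherin, the classical cadherin of epithelia, stood at 5524 in the OSU-HDAC42 sample and 5237 in the vehicle sample on its bright probe set (1386947_at), a difference of 0.077 or 1.05-fold higher. Of 303 genes of like brightness, 58.4% were at least as far from 0. Its other probe set (1386446_at) had intensities of 6.98 and 9.74, both under 16, so it gives no difference. P-cadherin, which in stratified epithelia is mostly a cadherin of basal cells, was dim at 101 against 78.3, a difference of 0.36 or 1.28-fold higher. At that brightness differences were wide, with an SD of 0.58 over 1559 genes, and 49.5% of them were at least as far from 0 as Cdh3. Cdh3 and Cdh1 are neighbours in the rat assembly, and both were higher in the OSU-HDAC42 sample under every scaling run.

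Alpha-catenin, the actin-binding catenin, stood at 1629.9 in the OSU-HDAC42 sample and 1996 in the vehicle sample, where the former is 81.6% of the latter. Its difference of -0.29 (1.23-fold lower) was the only one in the lower direction among the 4 adherens junction genes of the set, and 27.6% of the 1046 genes of like brightness were at least as far from 0. Beta-catenin was measured by 4 probe sets. The brightest (1373470_at) held exactly the same deposited value on both arrays, 9395, and the next (1373067_at) stood at 7793 against 8225.5, a difference of -0.078. A dim probe set (1369733_at) stood at 68.7 against 60.9, a difference of 0.17, and the last (1375284_at) at 16.1 against 12.2, with 1 array under 16 and both below the floor. Equal values were held by 963 of 31042 non-control probe sets (3.10%). Among probe sets with a mean of at least 4000 the share was smaller, 4 of 491, so equality is uncommon at the brightness of 1373470_at. The 3 beta-catenin probe sets above the floor therefore gave no common direction. As a group, the 4 adherens junction genes ran from -0.29 to 0.36 with a median of 0.038.

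**Figure D2:**
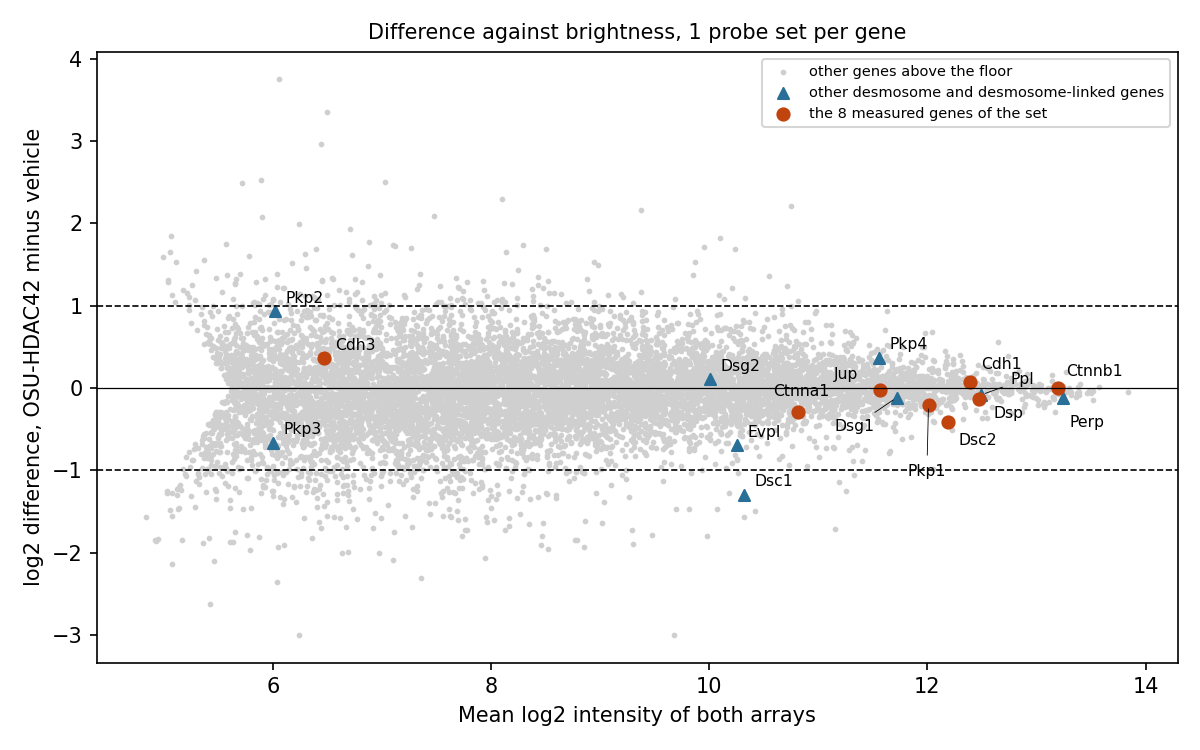
Difference (log2 OSU-HDAC42 minus log2 vehicle) against the mean log2 intensity of both arrays for all 9560 genes above the floor (grey), the 8 measured genes of the set (circles) and 9 other desmosome and desmosome-linked genes (triangles); dashed lines mark a 2-fold difference. The cloud narrows towards bright genes, the circles all lie inside the dashed lines, and Dsc1 at -1.29 is the only triangle outside them.

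Brightness sets how far these differences can be read. Except for Cdh3, the genes had intensities between 1629.9 and 9395 on their brightest probe sets, and the highest intensities outside the controls were 14438 and 14947. Over all genes above the floor the SD of the differences was 0.69 at mean log2 intensities under 6, 0.31 between 10 and 12, and 0.17 above 12. Of the 2283 genes with a mean intensity of at least 1000, 2.76% were 1.5-fold lower and 3.33% were 1.5-fold higher, and 47.2% were lower by any amount, beside 5 of the 7 bright members. Jup, among these 5, differed by -0.018 as deposited and by 0.0031 with each array centred on its median. The SD between probe sets of the same gene was 0.41, and 7 of the 8 differences lay within it. That of Dsc2 lay at its edge, at -0.42 as deposited and -0.39 with each array centred on its median. That SD covers only gaps between probe sets of 1 gene on these arrays and no spread between rats. It pools pairs of every brightness above the floor. Genes as bright as the 7 bright members had differences with a smaller SD, from 0.11 (Ctnnb1) to 0.32 (Ctnna1).

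Some other desmosome and desmosome-linked genes showed wider differences than the set itself, while Dsg1, Dsg2, Perp and Ppl lay closer to 0 than Dsc2. Of 10 further genes, 9 were measured and above the floor, 6 lower and 3 higher, with a median of -0.11. Dsc1 (desmocollin 1, a desmocollin of the upper layers of stratified epithelia) stood at 815 in the OSU-HDAC42 sample and 1997 in the vehicle sample, 2.45-fold lower (-1.29), and was the only one past 2-fold. Of 1268 genes of like brightness, 0.946% were at least as far from 0. The cornified envelope and desmosome-linked protein envoplakin (Evpl) stood at 962 against 1552 (-0.69). The remaining plakophilins differed in both directions, with Pkp2 at 89.6 against 46.9 (0.93) and Pkp3 at 50.8 against 80.3 (-0.66), both dim, and the plakophilin relative Pkp4 at 3429 against 2654 (0.37). The vehicle value of Pkp2 was under the floor of 49.1, so Pkp2 passed it only by its OSU-HDAC42 value.

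The desmosomal cadherin genes lie side by side in the rat assembly, in the order Dsc3, Dsc2, Dsc1, Dsg1, Dsg4, Dsg3 and Dsg2, and of these Dsc2, Dsc1, Dsg1 and Dsg2 were measured. The 2 desmocollins were lower in the OSU-HDAC42 sample, at -0.42 and -1.29. Dsg1, the desmoglein of the upper layers, stood at 3239 against 3507 on the brightest of its probe sets (-0.11), and its other probe sets differed by -0.027 and 0.020. Dsg2, the desmoglein found in simple epithelia and at low level in stratified ones, stood at 1069 against 988 (0.11). Perp, a tetraspan membrane protein of desmosomes, stood at 9284 against 10096 (-0.12), while its second probe set differed by 0.011. The 2 desmocollin values were thus the lowest of the 4 measured cadherins of this cluster, and each rests on 1 probe set.

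Other adherens junction genes had a median of -0.032, and of the 12 that passed the floor 5 were higher and 7 lower. Ajuba, a LIM protein that binds alpha-catenin, stood at 769 against 1460 (-0.92). Its dimmer probe set was near the floor, at 47.1 against 72.2 (-0.62). Ctnnd2, a delta-catenin best known from neurons, stood at 451 against 268 (0.75), and p120-catenin (Ctnnd1), which stabilises cadherins at the membrane, at 596 against 453 (0.39). Afadin (Afdn), which links nectins to actin, stood at 2009 against 2575 (-0.36). Its other probe set was near the floor, at 58.7 against 75.9 (-0.37). None of the 12 differed by 2-fold.

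Of the tight junction genes, all 14 measured were above the floor, 8 higher, 5 lower and 1 equal. Their median was 0.15, or 0.014 with the floor at the 75th percentile. The claudins Cldn7 (61.7 against 30.8, 1.00) and Cldn3 (207 against 122, 0.77) were higher, whereas Cldn8 (432 against 626, -0.54) and the junctional adhesion molecule F11r (587 against 837, -0.51) were lower. Cldn7 was the only one at 2-fold, on a dim probe set whose vehicle value was under the floor of 49.1. It thus passed the floor only by its OSU-HDAC42 value. The 6 gap junction genes that passed the floor held 2 that were higher and 4 that were lower (median -0.066), with the connexins Gjb1 at -0.36, Gjb6 at -0.31, Gjc1 at 0.30 and Gjb2 at 0.19.

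Cadherins known from other cell types bear on which cells the arrays sampled. Only 4 of 7 measured were above the floor. Cdh11, a cadherin of mesenchymal cells, stood at 235 against 121 (0.96), Cdh2 (N-cadherin) at 90.6 against 101 (-0.16, with 0.060 on its other probe set), Cdh13 at 232 against 278 (-0.26) and Cdh16 at 104 against 129 (-0.31). Cdh6, Cdh15 and Cdh17 were below the floor on both arrays. Of the transcriptional repressors of E-cadherin, Twist1 stood at 95.8 against 54.0 (0.83), Zeb1 at 68.2 against 57.6 (0.24) and Zeb2 at 472 against 707 (-0.58), and Snai1 was under 16 on both arrays. Among activators of epithelial junction genes, Grhl3 differed by 0.23, Grhl1 by 0.12 on its brightest probe set and 0.59 on its other (1626 against 1079.6), the splicing regulator Esrp1 by -0.17 and Tp63, the regulator of squamous identity listed as Trp63, by -0.0082. The repressor Snai2 and the listed activators Grhl2, Ovol1, Ovol2 and Esrp2 were not measured.

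**Figure D3:**
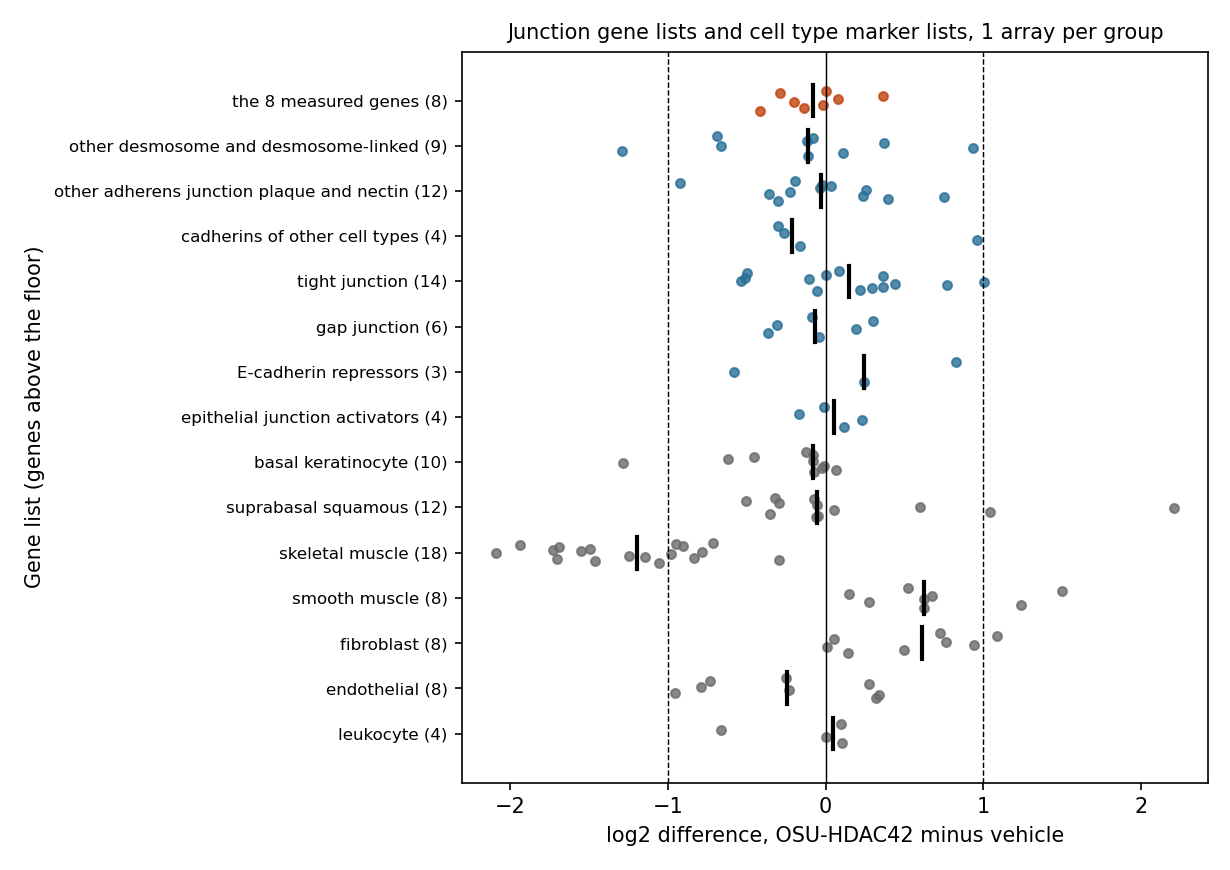
Differences (log2 OSU-HDAC42 minus log2 vehicle) of genes above the floor in the measured set, in 7 lists of other junction genes and their regulators and in 7 cell type marker lists, with the number of genes in brackets; each point is a gene on 1 array per group, vertical bars are medians and dashed lines mark 2-fold. The set (median -0.077) lies among the keratinocyte lists (medians -0.082 and -0.056). The medians of the gap junction (-0.066), other adherens junction (-0.032) and other desmosome (-0.11) lists lie near it too. The 18 skeletal muscle genes all lie below 0.

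The tissue was checked by markers of the cells it could hold. All 10 basal and 12 suprabasal keratinocyte markers measured were above the floor. The brightest were Krt14 at 7070.0 in the OSU-HDAC42 sample and 6769 in the vehicle sample and Krt13 at 14438 and 14947, and the dimmest were Itga3 at 124 and 189.8 and Ivl at 293 and 194. Markers of liver were all below the floor, as were 7 of 8 of simple or glandular epithelium, Epcam being the exception at 1770.3 and 1942. The basal keratinocyte markers had a median of -0.082 (1 of 10 higher and 9 lower, with Itgb4 at -1.28 and Itga3 at -0.62) and the suprabasal markers one of -0.056 (4 of 12 higher and 8 lower, with Sprr1b at 2.21 and Krt10 at 1.04). The summed intensity of the basal list was 35340 in the OSU-HDAC42 sample against 36790 in the vehicle sample, and that of the suprabasal list 60180 against 62460.

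By their medians, markers of muscle and fibroblasts differed more than the junction genes. All 18 skeletal muscle markers were lower in the OSU-HDAC42 sample (median -1.19, summed intensity 18830 against 37440, Tnnc2 at -0.98, Actn3 at -2.09, Ttn at -1.94). All 8 smooth muscle markers were higher (median 0.62, summed intensity 11010 against 6815, with Synpo2 2.83-fold higher, Tagln at 1.24 and Myh11 at 0.27). All 8 fibroblast markers were higher (median 0.61, summed intensity 21530 against 16940, with Thy1 at 1.09, Pdgfra at 0.94 and Col3a1 at 0.011), and with quantile normalization 7 were. Of 8 endothelial markers 3 were higher and 5 lower (median -0.24, or 0.041 with the floor at the 75th percentile, summed intensity 3038 against 2951, with Vwf at -0.95, Egfl7 at -0.79 and Pecam1 at 0.32). The 4 leukocyte markers that passed the floor held 2 that were higher, 1 lower and 1 equal (summed intensity of the 6 measured 1320 against 1842, with Cd74 at -0.66 and Ptprc at 0.10). Alpha-catenin, beta-catenin and plakoglobin are also made outside epithelia, and the part of these tissue differences in the junction values was not tested. In whole tissue, fewer cells of a type and less RNA per cell cannot be told apart.

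**Figure D4:**
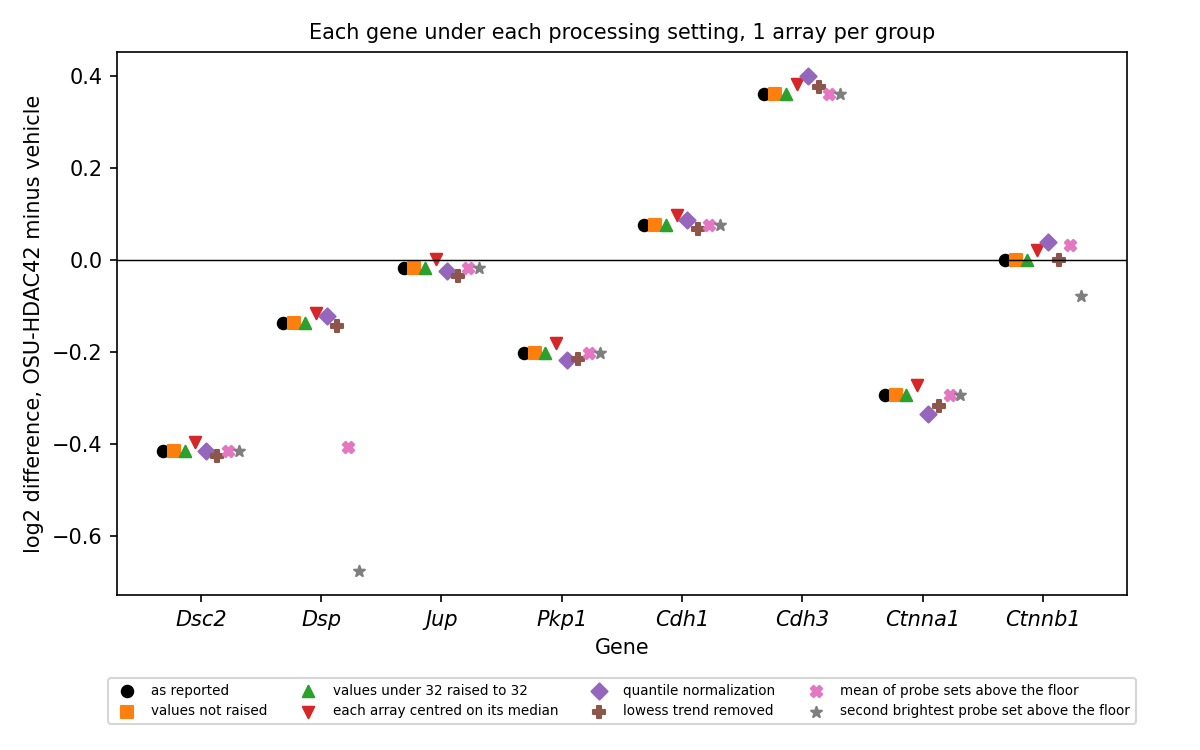
Difference (log2 OSU-HDAC42 minus log2 vehicle) of each of the 8 measured genes as reported (black circles) and under 7 other processing settings (other symbols), with 1 array per group. Dsc2, Pkp1 and Ctnna1 stay below 0 and Cdh1 and Cdh3 above 0 under all settings drawn, Jup and Ctnnb1 lie on both sides of 0 or at it, and Dsp moves from -0.14 to -0.67 when its second probe set stands for it.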

How the data were processed

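RNA from esophageal tissue was measured on 1 array for each of the OSU-HDAC42 and vehicle groups. The table the authors deposited gives linear intensities, as judged from its values. The submitters' processing notes name GCOS and RMA without a role or version, and how the arrays were scaled to each other is not given in the sources used here. For the RNA extraction the labels' protocols name Trizol, and the series design text a Qiagen kit. Median intensities were 48.4 (OSU-HDAC42) and 49.1 (vehicle), and the number of arrays limits the precision.

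Of 31099 probe sets, 57 controls were set aside. The platform annotation gave 1 symbol for 20826 of the others, several for 436 and none for 9780, and only the first kind was used. Values below 16 were set to 16 before log2, with no further scaling. The brightest probe set stood for a gene. Brightness comparisons used genes above the floor within 0.5 log2 units. Named list genes were up to 4 of each junction list with the largest differences, and of each marker list 2 and the brightest. The members and lists were chosen with earlier results of these data known. Krt6a was not matched, since that symbol is now ambiguous. Alternatives covered the raised value, the scaling, the floor and the choice of probe set. The code, in Python 3.11.15 with pandas 2.3.3, was tested on simulated data.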

Additional observations from a re-analysis of the deposited data

How the results depend on the processing

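Of 56 member differences under other settings 55 moved by less than 0.41, the SD between probe sets of 1 gene. The exception was Dsp at -0.67 with the second brightest probe set, by construction, which also raised the count at 1.5-fold from 0 to 1. No setting gave a 2-fold member. Many of the 56 values could not move. Changing the raised value leaves the members' brightest probe sets as they are, and the choice of probe set can move only Dsp and Ctnnb1. A value can also change sign within 0.41, as Jup did with each array centred on its median. The members' median ran from -0.14 to -0.056, that of all genes from -0.036 to 0. Of 120 list medians 118 moved by less than 0.41. With the floor at the 75th percentile the medians of the E-cadherin repressors, leukocytes and endothelial markers changed sign, to -0.58, -0.66 and 0.041, where fewer genes remained. No paired analysis was possible because there was 1 array in either group. Dsp, Ctnnb1 and Cdh1 had a further probe set, and the other genes no second reading; dim probe sets limit Cdh3.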
